A study of Mus musculus with 25 samples.

Results

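The genes described here are the collagens, the laminin chains and 10 further genes of the connective tissue matrix and its cells (Fn1, Sparc, Sparcl1, Igfbp7, Dcn, Lum, Bgn, Fbn1, Nid1 and Vim), measured in mouse isolated lymphoid follicles (ILFs) and the epithelium around them. They were chosen by name, as every row of the count table whose symbol is a collagen chain, a laminin chain or one of those 10 genes, with at least 1 count in the series. This gave 62 members, 41 collagen chains, 11 laminin chains and the 10 others, of the 24089 rows in the table. ILFs are small lymphoid aggregates in the wall of the intestine, covered by a follicle-associated epithelium (FAE). Segments were cut by laser from jejunum sections of 2 wild-type C57BL/6 male mice, 3 months old, that were fed regular chow and received no treatment. The 5 segments were ILF bottom (ILFB) and ILF top (ILFT), which are immune segments, and FAE top (FAET), FAE bottom (FAEB) and the bottom of an adjacent villus (VB), which are epithelial. Each segment had 5 repeats, repeats 1 and 2 from mouse 1 and repeats 3, 4 and 5 from mouse 2, so the 25 libraries rest on 2 animals, and each library is a pool of pieces from several follicles.

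Fibrillar collagens are made mostly by fibroblasts and form the fibers of connective tissue, while type IV collagens and laminins form the sheet-like basement membrane under epithelium and around vessels. Type VI collagen makes microfilaments near that sheet, and matricellular proteins and small proteoglycans bind the matrix without building its scaffold. Laminins are trimers of an alpha, a beta and a gamma chain, and epithelial cells, vessels and mesenchymal cells make different trimers. The messenger RNA of these genes therefore marks which cells were cut, and most of them are made outside the epithelial layer itself.

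Expression was counted as unique molecular identifiers (UMIs), tags that count each captured messenger RNA molecule once. The libraries held from 21529 to 213736 UMIs. Libraries were set against fixed lists of 18 epithelial and 17 immune marker genes, and a library was taken to go against its label where an ILF library had more epithelial than immune UMIs or an epithelial library more immune than epithelial ones. In 6 libraries the markers went against the label, ILFB repeat 5, ILFT repeats 1, 3 and 4, FAET repeat 1 and VB repeat 5. Immune markers made up 26.0 to 67.1 UMIs per 10,000 in the 6 other ILF libraries and 0.465 to 7.999 in the 13 other epithelial libraries. They made up 4.63, 5.13, 29.3 and 8.71 per 10,000 in ILFB repeat 5 and in ILFT repeats 1, 3 and 4, and 45.4 and 65.6 in FAET repeat 1 and VB repeat 5. ILFT repeat 3 held both kinds, with 82.2 epithelial UMIs per 10,000. These are the discordant libraries below, and the other 19 are concordant. Results are given over all 25 libraries, and the main ones also without the 6 discordant ones.

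The 62 members held 2886 of 2168514 UMIs, or 0.133%, so most of them were near the limit of detection. Of the 62, 24 had fewer than 10 UMIs over the series, 11 were seen in 1 library only, 22 had at least 30 UMIs and 9 at least 100. The 15 members with the most UMIs held 77.6% of all member UMIs. In the 6 concordant ILF libraries the members made up 14.9 to 25.5 UMIs per 10,000, with a median of 23.9, and in the 13 concordant epithelial libraries 1.39 to 14.6, with a median of 3.49. A library of the first kind showed 13 to 40 members, median 33, and one of the second kind 3 to 13, median 8, while library totals had medians of 114186 and 70784 UMIs. In bulk segments such as these, fewer cells of a type and less RNA per cell cannot be told apart.

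**Figure D1:**
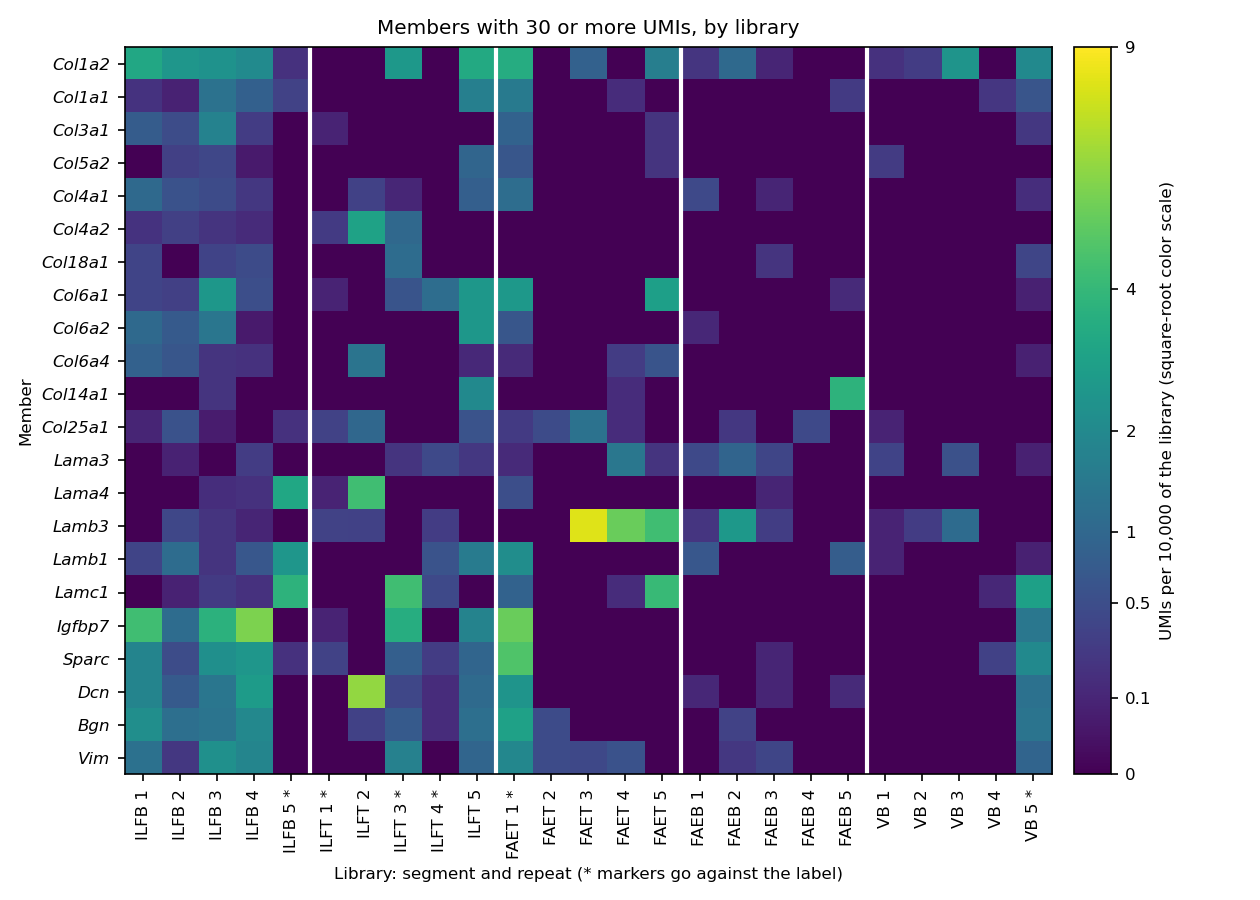
Heat map of the 22 members with at least 30 UMIs (rows, ordered by matrix class) in the 25 libraries (columns, ordered ILFB, ILFT, FAET, FAEB and VB), colored by UMIs per 10,000 of the library on a square-root scale. Asterisks mark the 6 discordant libraries, and the lower rows show Igfbp7, Sparc, Dcn, Bgn and Vim in ILFB repeats 1 to 4, FAET repeat 1 and VB repeat 5 but at or near 0 in the other 13 epithelial libraries.

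To compare the immune with the epithelial segments, all 25 libraries were fitted with edgeR's quasi-likelihood test on the 9956 genes that reached 3 UMIs in 3 or more libraries. Of the 62 members, 27 passed that filter and were tested. Past an adjusted p of 0.05, 4 members were higher in the ILF, Igfbp7 of vessels and stroma, Col6a2 of microfilaments, and Lama4 and Col4a2 of the basement membrane, and no member was lower. The median log2 fold change was 1.48 over the 27 members tested and 0.48 over all genes tested, but a member could pass the filter through its ILF libraries alone, so the first value is a description only. Over all genes tested, 2.56% were called higher in the ILF and 0.472% lower. Without the discordant libraries 15 members were called, all higher in the ILF, against 12.7% of all genes higher and 3.37% lower. The limit set by the filter holds for the direction of both sets of calls too. None of the 4 members called over all 25 libraries met the filter in the epithelial libraries, so each entered the test through the ILF. Among epithelial libraries Igfbp7 reached 3 UMIs only in FAET repeat 1 and VB repeat 5, and Col6a2 and Lama4 only in FAET repeat 1. Col4a2 had no UMI in any epithelial library. The 4 calls fell to 2, Igfbp7 and Col4a2, with the repeat number as a block, which pairs the segments of the same repeat within a mouse. They fell to 1 without repeat 2 or repeat 3 and to 0 without repeat 4, and were 8 without repeat 1. Of all genes, 0.653% were called higher with the block, and 0.221%, 0.151% and 0% without repeats 2, 3 and 4. Without repeat 1 the share was 2.14%. In mouse 2 alone 2 members were called, against 0.291% of all genes higher, and limma-voom called 1, against 0.231%. In mouse 1 alone 0 members were called, where 0 genes were called in all. DESeq2 gave no adjusted p for any of the 27.

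**Figure D2:**
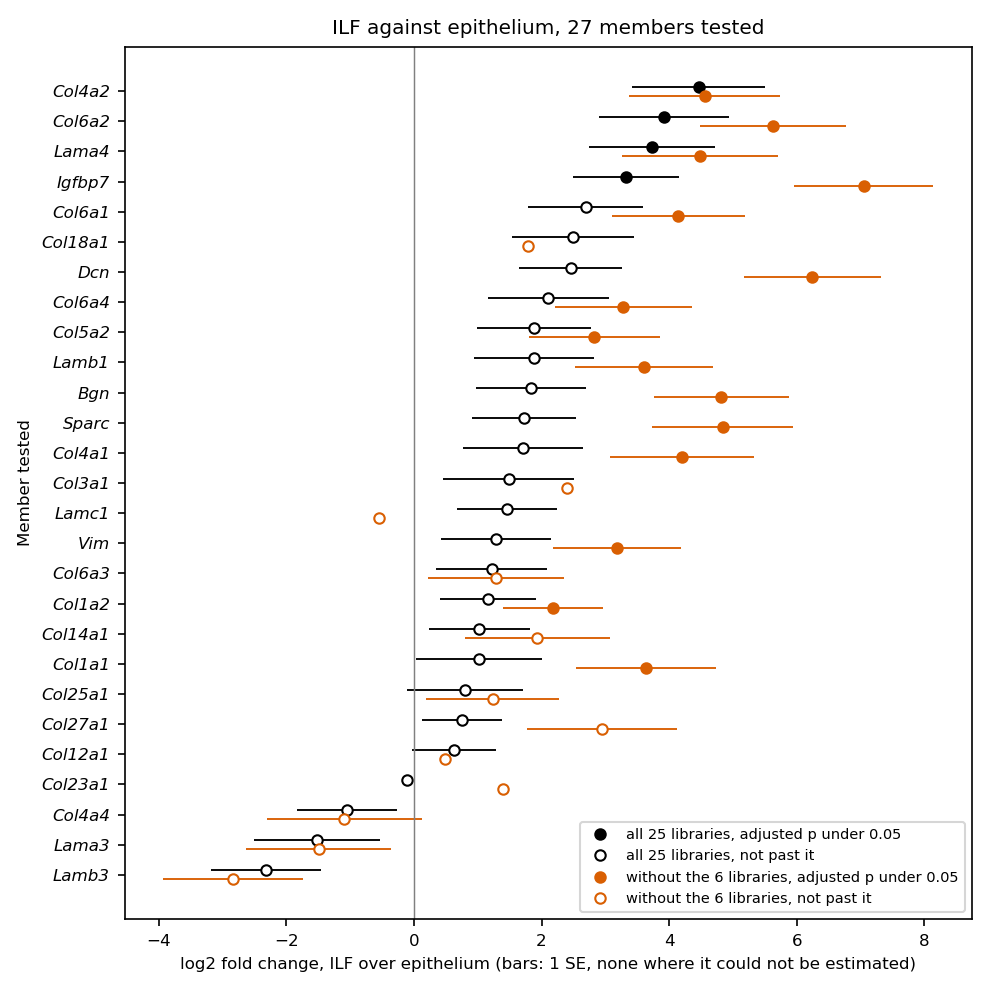
Log2 fold change of the ILF over the epithelium for the 27 members tested, ordered by value, with all 25 libraries (black) and leaving out the 6 discordant libraries (orange), bars 1 SE and filled points past an adjusted p of 0.05. Igfbp7 lies at 3.32 in the first fit and 7.05 in the second and Dcn at 2.46 and 6.25, while Lamb3, Lama3 and Col4a4 lie below 0 in both.

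The matricellular gene Igfbp7, which encodes a secreted protein of vessels and stroma, had the most UMIs of all members, 365. It had 45, 14, 72, 124 and 0 UMIs in repeats 1 to 5 of ILFB and 1, 0, 34, 0 and 15 in those of ILFT. FAET repeat 1 held 42 and VB repeat 5 held 18, and the other 13 epithelial libraries held none. The fold change of the ILF over the epithelium was 3.32 on the log2 scale (SE 0.83, adjusted p = 0.0139), and 7.05 without the discordant libraries (SE 1.09, adjusted p = 1.005e-07). It did not pass without repeat 3 (2.53, adjusted p = 0.176) or repeat 4 (3.06, adjusted p = 0.138). Pooled over the concordant libraries, its share was 3.60 per 10,000 in the ILF, at least 105-fold higher than in the epithelium, where a count of 0 over the 13 libraries allows up to 3 UMIs. Its gene overlaps the protein-coding gene Polr2b on the opposite strand, and whether the counting used strand is not given in the sources used here.

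Sparc, which encodes a collagen-binding matricellular protein, Dcn and Bgn, which encode the proteoglycans decorin and biglycan, and Vim, the intermediate filament of mesenchymal cells and leukocytes, were each detected in ILFB repeats 1 to 4, FAET repeat 1 and VB repeat 5, as Igfbp7 was. Sparc had 19, 6, 43, 53 and 1 UMIs in repeats 1 to 5 of ILFB, 4, 0, 8, 2 and 8 in those of ILFT, 37 in FAET repeat 1 and 26 in VB repeat 5. Of the other 13 epithelial libraries, VB repeat 4 held 3 and FAEB repeat 3 held 1. Dcn had 19, 9, 27, 58 and 0 UMIs in ILFB and 0, 19, 4, 1 and 9 in ILFT. It had 19 in FAET repeat 1, 16 in VB repeat 5 and 1 in each of 3 FAEB libraries. The 19 Dcn UMIs of ILFT repeat 2 came from a library in which Igfbp7, Sparc and Vim were at 0. Bgn had 23, 15, 26, 42 and 0 UMIs in ILFB and 0, 1, 7, 1 and 10 in ILFT, with 23 in FAET repeat 1 and 17 in VB repeat 5 and 4 in the other 13 epithelial libraries together. Vim had 13, 3, 44, 40 and 0 UMIs in ILFB and 0, 0, 17, 0 and 8 in ILFT, with 15 in FAET repeat 1, 12 in VB repeat 5 and 12 in the other 13 together. None of these passed over all 25 libraries, where Dcn was at 2.46 (SE 0.80, adjusted p = 0.0621), Bgn at 1.84 (adjusted p = 0.221), Sparc at 1.73 (adjusted p = 0.221) and Vim at 1.28 (adjusted p = 0.425). Without the discordant libraries all of them were higher in the ILF, Dcn by 6.25 (adjusted p = 2.531e-06), Sparc by 4.84 (adjusted p = 0.000684), Bgn by 4.82 (adjusted p = 0.000417) and Vim by 3.19 (adjusted p = 0.0173). In mouse 1 alone, with 4 ILF and 6 epithelial libraries, Vim was at -0.32.

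The 6 members with the most UMIs, Igfbp7, Col1a2, Sparc, Dcn, Bgn and Vim, were summed in each library. They made up 6.29 to 16.9 UMIs per 10,000 in the 6 concordant ILF libraries and 0 to 2.41 in the 13 concordant epithelial libraries. FAET repeat 1 and VB repeat 5 held 20.8 and 8.99, with all 6 genes detected. ILFB repeat 5 and ILFT repeats 1 and 4 held 0.356, 0.434 and 0.581, and ILFT repeat 3 held 9.74. The libraries with many immune UMIs, whichever segment they were labelled as, were thus also those with more of these genes, as the plot of both shares displays. Fibroblast and telocyte markers, a fixed list of 15 genes of which 12 are in the table, ranged from 0.334 to 2.86 UMIs per 10,000 in the 6 ILF libraries and from 0.131 to 1.20 in the 13 epithelial ones, where 4 of the 12 were at 0. Pericyte markers held 27 UMIs in the 6 ILF libraries and 0 in the 13 epithelial ones, and blood endothelium markers held 2.87 to 6.21 and 0.391 to 3.002 per 10,000. Follicular stroma markers held 4679 and 311 UMIs, of which Clu held 2004 and 69 and Mfge8 2047 and 199, while Ltbr had 8 and 21. Enteric glia and neuron markers held 23 and 5. Paneth cell markers, a list of 9 genes, held 2160 and 356 UMIs. Only 2 lists went the other way, smooth muscle with 220 and 276 UMIs and lymphatic endothelium with 20 and 150. In the epithelium Mylk held 243 of the former and Reln 148 of the latter. Their part in the shares of the matrix genes was not tested.

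**Figure D3:**
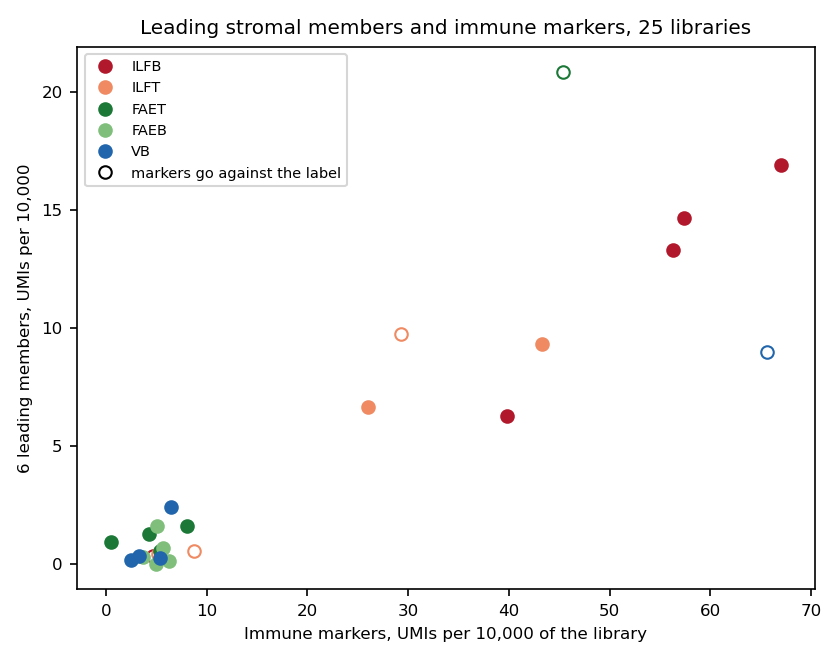
UMIs per 10,000 of the 17 immune markers (horizontal axis) and of the 6 members with the most UMIs summed (vertical axis), 1 point for each of the 25 libraries, colored by segment and open for the 6 discordant libraries. The 6 ILF libraries with filled points lie at 6.29 or more on the vertical axis and the 13 filled epithelial points at 2.41 or less, while the open FAET and VB points lie among or above the ILF points.

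The promoters of 3 of these genes are shown because all 3 were detected in ILFB repeats 1 to 4 and ILFT repeats 3 and 5. Of the other ILF libraries, Igfbp7 had 1 UMI in ILFT repeat 1 and Bgn 1 each in ILFT repeats 2 and 4. RefSeq windows (build GRCm38.p6) were given for 43 of the 62 members, Dcn not among them. The 120 bases before the RefSeq start were searched on both strands for TATAAA, for CCAAT and for GGGCGG, and capitals mark each match, on the opposite strand too. Igfbp7 is at chr5:77408046-77408165 on the minus strand, Bgn at chrX:73483481-73483600 on the plus strand and Vim at chr2:13574191-13574310 on the plus strand.
Igfbp7: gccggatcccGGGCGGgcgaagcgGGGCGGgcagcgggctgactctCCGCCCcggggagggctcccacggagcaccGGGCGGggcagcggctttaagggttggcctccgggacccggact
Bgn: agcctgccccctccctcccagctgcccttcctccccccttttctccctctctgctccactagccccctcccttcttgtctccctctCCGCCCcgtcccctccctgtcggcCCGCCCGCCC
Vim: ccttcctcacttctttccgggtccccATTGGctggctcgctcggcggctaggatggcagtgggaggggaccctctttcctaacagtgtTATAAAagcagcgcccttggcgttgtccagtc
Igfbp7 had GGGCGG 4 times and Bgn 3 times, of which 2 overlap, and neither window held TATAAA or CCAAT. Vim had TATAAA 32 to 27 bases before the start and CCAAT on the opposite strand. Of all 32851 RefSeq windows, 26.5% held GGGCGG, 21.3% CCAAT and 6.34% TATAAA in these 120 bases. Igfbp7 and Bgn thus had GGGCGG in common, and no motif was in all 3 windows. Of the other leading members, the windows of Sparc and Col1a2 are not printed because the RefSeq start lay 3103 and 804 bases from the GENCODE gene start, and they held none of the motifs and CCAAT alone.

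Among the fibrillar collagens, 11 of 11 listed chains had UMIs and together 557. Their summed share was 3.89 ± 2.00 UMIs per 10,000 in ILFB, 1.97 ± 2.68 in ILFT, 2.30 ± 3.45 in FAET, 0.621 ± 0.496 in FAEB and 1.45 ± 1.42 in VB (SD, n = 5 each). The ranges of all 5 segments overlapped. The FAET mean fell to 0.798 without the discordant repeat 1, and the ILFT mean to 0.880 without repeat 5. Col1a2, the alpha 2 chain of type I collagen, was found in 10 of the 15 epithelial libraries, and in 8 of the 13 concordant ones, where Lamb3 was found in 9. It had 34, 31, 45, 44 and 1 UMIs in repeats 1 to 5 of ILFB and 0, 0, 25, 0 and 28 in those of ILFT. It had 27, 0, 2, 0 and 8 in FAET, 2, 9, 1, 0 and 0 in FAEB and 2, 1, 13, 0 and 26 in VB. Over all libraries its difference did not pass (log2 fold change 1.16, SE 0.75, adjusted p = 0.402), without the discordant libraries it did (2.18, SE 0.78, adjusted p = 0.0388), and in mouse 1 alone it was at -1.60 and did not pass. Col1a1, the partner chain, had 2, 1, 25, 18 and 2 UMIs in ILFB and 0, 0, 0, 0 and 14 in ILFT. It had 12 in FAET repeat 1, 8 in VB repeat 5 and 5 in the other 13 epithelial libraries together. Col1a2 was seen in 17 libraries and Col1a1 in 11, and 8 libraries held both. The change of Col1a1 was 1.02 (adjusted p = 0.620) over all libraries and 3.64 (adjusted p = 0.0120) without the 6, and -0.19 in mouse 1 alone.

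Col3a1, the chain of type III collagen, had 8, 6, 34, 6 and 0 UMIs in ILFB and 1, 0, 0, 0 and 0 in ILFT. It had 7 in FAET repeat 1, 3 in VB repeat 5 and 1 in FAET repeat 5. ILFB repeat 3 alone held 51.5% of its UMIs, and the change did not pass (1.48, SE 1.03, adjusted p = 0.445). Without the discordant libraries Col3a1 was at 0 in ILFT and FAEB, where the 5-segment fit cannot bound the contrast and gave a p of 1. Merging the segments into ILF and epithelium gave 4.79 (SE 1.12, adjusted p = 0.000795) for the same libraries, and called 16 members there in place of 15. Col14a1, of the FACIT collagens that sit on the surface of fibrils, had 51 UMIs, of which FAEB repeat 5 held 29, or 56.9%, ILFT repeat 5 held 17, ILFB repeat 3 held 4 and FAET repeat 4 held 1. All 4 of those libraries are of mouse 2, and the difference was 1.03 (adjusted p = 0.508), with a sign that turned in limma-voom (-0.34) and in the merged fit (-0.19).

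Type VI collagens held 282 UMIs in 5 members. Their summed share was 2.05 ± 1.66 UMIs per 10,000 in ILFB, 1.71 ± 2.04 in ILFT, 1.42 ± 1.82 in FAET, 0.179 ± 0.332 in FAEB and 0.109 ± 0.115 in VB (SD, n = 5 each). Single libraries held much of these means, which fell to 0.825 in ILFT without repeat 5, to 0.942 or 0.902 in FAET without repeat 1 or 5, to 0.0326 in FAEB without repeat 1 and to 0.0674 in VB without repeat 1. Col6a2 had 11, 9, 27, 1 and 0 UMIs in repeats 1 to 5 of ILFB and 21 in ILFT repeat 5, with 0 in the other 4 ILFT libraries. In the epithelium it had 5 in FAET repeat 1, 1 in FAEB repeat 1 and 0 in the other 13. It was 3.92 higher in the ILF on the log2 scale (SE 1.02, adjusted p = 0.0184), and no longer passed with the repeat block (3.96, adjusted p = 0.0632). It did not pass without repeat 2 (4.32, adjusted p = 0.0534), repeat 3 (3.70, adjusted p = 0.0966), or repeat 4 (3.88, adjusted p = 0.134). Without repeat 5 it was at 0 in every ILFT library, where the fit over the 5 segments cannot bound the contrast and gave a p of 1. Col6a1, which forms a trimer with it, had 4, 4, 49, 11 and 0 UMIs in ILFB and 1, 0, 6, 8 and 21 in ILFT. In the epithelium it had 20 in FAET repeat 1, 14 in FAET repeat 5, 1 in FAEB repeat 5 and 1 in VB repeat 5. ILFB repeat 3 had the highest count of both chains, while FAET repeat 5 held Col6a1 and no Col6a2. The change of Col6a1 was 2.69 (SE 0.90, adjusted p = 0.0684), and 4.15 (adjusted p = 0.00221) without the discordant libraries. On chromosome 10 the genes lie on the minus strand with 85161 bases between them, Col6a2 at 76595762 to 76623630 and Col6a1 at 76708792 to 76726168 (GRCm38).

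Type IV collagens, the network of the basement membrane, held 122 UMIs in 6 members. Col4a2 was the only member among the 27 tested that had no UMI in any of the 15 epithelial libraries, the 2 with immune markers included. It had 2, 4, 4, 3 and 0 UMIs in repeats 1 to 5 of ILFB and 3, 9, 10, 0 and 0 in those of ILFT, so 7 of 10 ILF libraries held it. Its fitted change was 4.46 on the log2 scale (SE 1.04, adjusted p = 0.00639), the largest of the 27 over all 25 libraries but not without the discordant ones. Pooled over the concordant libraries its share was at least 8.57-fold higher in the ILF, with 3 UMIs over the group as the limit for a count of 0. With the repeat block the fitted change was 4.01 (adjusted p = 0.0319). The call was lost without repeat 2 (adjusted p = 0.0714), repeat 3 (adjusted p = 0.0850) or repeat 4 (adjusted p = 0.0945), with a log2 fold change of at least 4.001 in each. Col4a1 encodes the chain that pairs with it in the same molecule. It had 11, 7, 9, 5 and 0 UMIs in ILFB and 0, 1, 1, 0 and 7 in ILFT, with 9 in FAET repeat 1, 2 in VB repeat 5, 4 in FAEB repeat 1 and 1 in FAEB repeat 3. Its change was 1.71 (SE 0.94, adjusted p = 0.307), and 4.21 (adjusted p = 0.00457) without the discordant libraries. Of the 11 libraries with Col4a1 and the 7 with Col4a2, 6 held both.

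Col4a1 and Col4a2 are transcribed away from each other on chromosome 8, and their gene models overlap by 22 bases at their starts. The stretch between the RefSeq starts, chr8:11312805-11312826 on the plus strand, is printed because it belongs to the start of both genes.
Col4a1 and Col4a2: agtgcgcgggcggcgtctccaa
The Col4a2 start is its first base and the Col4a1 start its last. Col4a4 and Col4a3, with 18 and 9 UMIs, lie head to head on chromosome 1 with 71 bases between them. Col4a4 did not pass (log2 fold change -1.05, SE 0.78, adjusted p = 0.490). Col18a1, of the multiplexin collagens of vessel and epithelial basement membranes, had 4, 0, 7, 10 and 0 UMIs in ILFB and 11 in ILFT repeat 3, with 5 in VB repeat 5 and 2 in FAEB repeat 3, and did not pass (2.49, SE 0.96, adjusted p = 0.115). Nid1, which links laminin to type IV collagen, had 15 UMIs, 3 in ILFB, 6 in ILFT repeat 5, 5 in FAET repeat 1 and 1 in FAEB repeat 3.

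The laminin chains are given by the trimer they form. Lamb3 and Lama3 encode chains of the laminin that anchors epithelium. Lamb3 had 0, 5, 4, 2 and 0 UMIs in repeats 1 to 5 of ILFB and 4, 1, 0, 2 and 0 in those of ILFT. It had 0, 0, 19, 38 and 21 in FAET, 2, 22, 3, 0 and 0 in FAEB and 1, 1, 6, 0 and 0 in VB. No ILF library held more than 5, and FAET repeats 3, 4 and 5 and FAEB repeat 2 held 19 or more, while the lowest counts of both groups overlapped at 0. Its mean share was 0.168 ± 0.167 UMIs per 10,000 in the ILF (SD, n = 10) and 1.49 ± 2.51 in the epithelium (SD, n = 15). It had the lowest fold change of the 27 members, -2.32 on the log2 scale (SE 0.86, adjusted p = 0.101), at -2.83 (adjusted p = 0.0578) without the discordant libraries and 0.73 in mouse 1 alone. Its GENCODE gene model overlaps Hsd11b1 and G0s2, protein-coding genes on the opposite strand. The RefSeq starts of Lamb3 lie 94295 and 94544 bases from the start of that model, and overlap with the RefSeq gene was not tested. Lama3 had 7 UMIs in ILFB and 7 in ILFT, against 12 in FAET, 16 in FAEB and 8 in VB, and was at -1.52 (SE 0.99, adjusted p = 0.410).

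Lama4, Lamb1 and Lamc1 encode the chains of a laminin of vessels and mesenchyme, and Lamb1 and Lamc1 also serve in other trimers. Lama4 had 0, 0, 3, 4 and 18 UMIs in repeats 1 to 5 of ILFB and 1, 13, 0, 0 and 0 in those of ILFT, with 4 in FAET repeat 1, 1 in FAEB repeat 3 and 0 in the other 13 epithelial libraries. It was 3.73 higher in the ILF (SE 0.99, adjusted p = 0.0198), and no longer passed with the repeat block (3.17, adjusted p = 0.111) or without repeat 2 (2.12, adjusted p = 0.457), repeat 4 (3.83, adjusted p = 0.125) or repeat 5 (2.62, adjusted p = 0.128). Most of its UMIs were thus in ILFB repeat 5, whose markers were epithelial, and in ILFT repeat 2. Lamb1 had 4, 14, 4, 14 and 14 UMIs in ILFB and 0, 0, 0, 4 and 13 in ILFT, with 17 in FAET repeat 1, 6 in FAEB repeat 1, 6 in FAEB repeat 5, 1 in VB repeat 1 and 1 in VB repeat 5. Its change was 1.88 (adjusted p = 0.256), 3.60 (adjusted p = 0.0117) without the discordant libraries and -1.50 in mouse 1 alone. Lamc1 had 0, 1, 5, 4 and 21 UMIs in ILFB and 0, 0, 42, 3 and 0 in ILFT, with 37 in VB repeat 5, 20 in FAET repeat 5, 7 in FAET repeat 1 and 1 each in FAET repeat 4 and VB repeat 4. Of its 142 UMIs, 66 lay in the discordant ILF libraries and 44 in the discordant epithelial ones. Its change was 1.46 (SE 0.79, adjusted p = 0.296), and -0.55 without the discordant libraries.

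**Figure D4:**
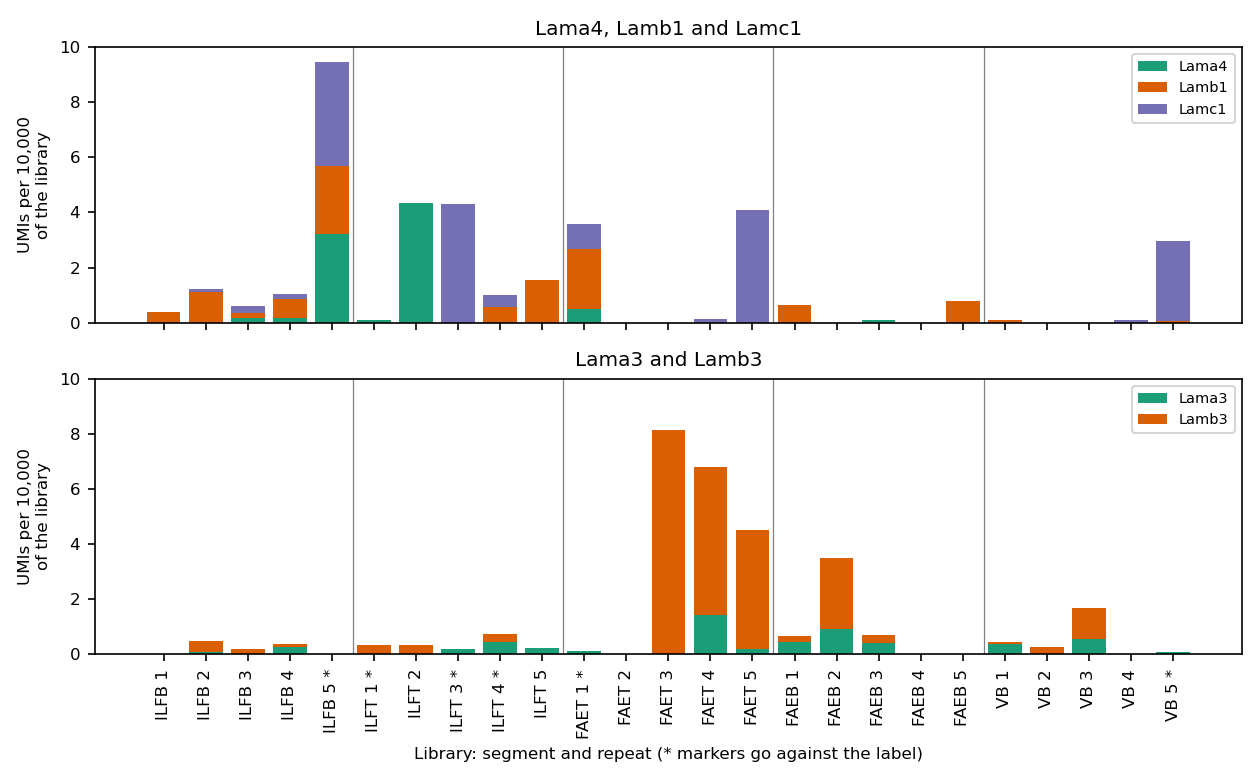
Stacked bars of the UMIs per 10,000 of Lama4, Lamb1 and Lamc1 (upper panel) and of Lama3 and Lamb3 (lower panel) in each of the 25 libraries, ordered ILFB, ILFT, FAET, FAEB and VB, with an asterisk for the 6 discordant ones. ILFB repeat 5 has the tallest upper bar, with 18, 14 and 21 UMIs of its 3 genes, and the 3 tallest lower bars are FAET repeats 3, 4 and 5, at 8.15, 6.78 and 4.51.

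ILFB repeat 5 held 61 member UMIs, of which Lama4, Lamb1 and Lamc1 were 18, 14 and 21. It was the only library with at least 5 UMIs of each of these genes, and it had 0 UMIs of Igfbp7, Dcn, Bgn and Vim, 1 of Sparc and 0 of any type IV collagen. Its laminin share was 9.44 UMIs per 10,000, against 0.958 to 2.18 in the other 4 ILFB libraries.

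Within the immune and within the epithelial segments no member passed the edgeR test. Between ILFB and ILFT 0.0904% of all genes were called. At an unadjusted p under 0.05 there were 3 of the 27 members, against 14.3% of all genes, and without the discordant libraries 1 member, against 9.87% of all genes. Col3a1 was at 4.52 (adjusted p = 0.208) in this comparison. The type IV share averaged 0.838 ± 0.608 UMIs per 10,000 in ILFB, against 1.11 ± 1.32 in ILFT (SD, n = 5 each), and ILFT fell to 0.556 without repeat 2, which turned the order. Of the concordant ILF libraries, 4 were ILFB and 2 were ILFT. Between FAET and VB 0.01% of genes were called. An unadjusted p under 0.05 was seen for 12.5% of all genes and for 2 members, Col6a1 at 5.35 (SE 1.67, adjusted p = 0.345) and Lamb3 at 3.63 (SE 1.33, adjusted p = 0.345). Without the discordant libraries there were 4 such members, against 13.5% of all genes. The Col6a1 UMIs of FAET lay in repeats 1 and 5, and the Lamb3 UMIs in repeats 3, 4 and 5. Between FAEB and VB 0.0201% of genes were called. An unadjusted p under 0.05 was seen for 8.96% of all genes and for 4 members, Lamc1 at -5.05, Igfbp7 at -4.25 and Sparc at -3.58, whose VB UMIs lay in repeat 5 except for 1 of Lamc1 and 3 of Sparc in repeat 4, and Col14a1 at 5.25, whose FAEB UMIs lay in 1 library. Without the discordant libraries it was seen for 1 member, against 8.37% of all genes. Between FAET and FAEB 0% of genes were called. An unadjusted p under 0.05 was seen for 14.3% of all genes and for 10 members, all higher in FAET, and without the discordant libraries for 16.1% of genes and 6 members, 4 higher in FAET and 2 lower. DESeq2 and limma-voom also called no member in these 4 comparisons, with no adjusted p from DESeq2 for 1 of the 27.

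Laminins made up 5.70 ± 3.72 UMIs per 10,000 in FAET, 1.40 ± 1.40 in FAEB and 1.24 ± 1.27 in VB (SD, n = 5 each). The FAEB mean fell to 0.813 without repeat 2 and the VB mean to 0.732 without the discordant repeat 5. Lama3 and Lamb3 together made up 8.15, 6.78 and 4.51 per 10,000 in FAET repeats 3, 4 and 5, all of mouse 2. In mouse 1 they made up 0.128 in the discordant FAET repeat 1 and 0 in FAET repeat 2. FAEB held 0 to 3.51 and VB 0 to 1.67. FAET repeat 2 had 21529 UMIs in all and FAET repeat 3 had 23314. In the joint test over the 5 segments 3 members were called, Igfbp7 (adjusted p = 0.00626), Col4a2 (adjusted p = 0.0348) and Col6a1 (adjusted p = 0.0489), against 1.79% of all genes. With the repeat block 1 was called, against 0.482% of all genes.

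**Figure D5:**
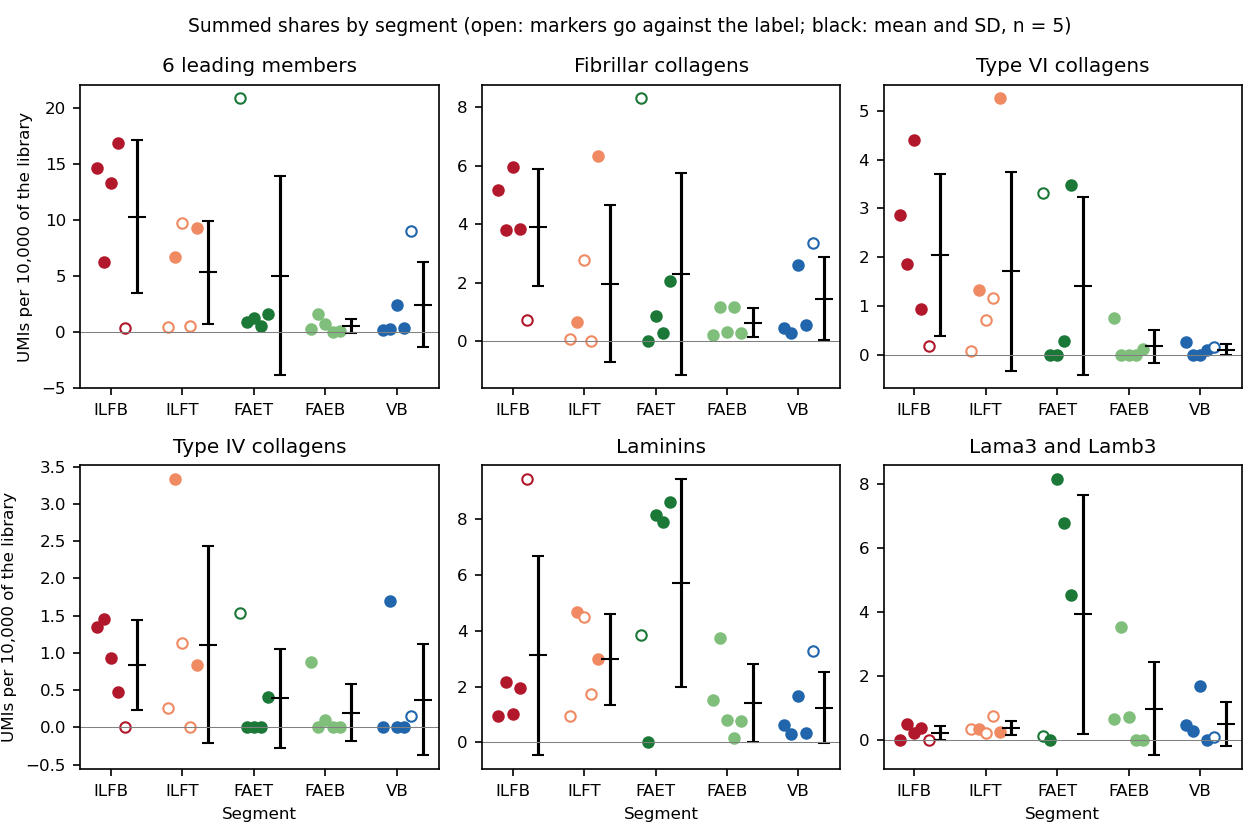
UMIs per 10,000 of each library for 6 sums of members, by segment in the order ILFB, ILFT, FAET, FAEB and VB, with points for the 5 repeats (open for discordant libraries) and the mean with SD in black. In the panel of the 6 leading members the open points of FAET and VB stand at 20.8 and 8.99, above every filled epithelial point, and in the panel of Lama3 and Lamb3 FAET repeats 3, 4 and 5 stand above every ILF point.

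The remaining classes were sparse. Of the membrane and anchoring collagens, Col25a1, a transmembrane collagen, had the most UMIs, 35, with 10 in ILFB, 12 in ILFT, 7 in FAET, 5 in FAEB and 1 in VB, and did not pass (0.80, adjusted p = 0.689). Fn1, fibronectin, had 20 UMIs, 6 in ILFB, 6 in ILFT, 4 in FAET, 0 in FAEB and 4 in VB. Col8a1 had 3 UMIs, all in FAET repeat 1, and Col26a1 had 4, all in ILFB repeat 2. Of the 62 members, 19 had UMIs in the 6 concordant ILF libraries and none in the 13 concordant epithelial libraries, 3 had the reverse, 37 had UMIs in both and 3 in neither. These were 30.6% and 4.84% of the members for the first 2 counts, against 24.3% and 10.3% of the 23199 rows with a UMI. The median depth was higher in the ILF libraries, 114186 against 70784 UMIs. Summed over the group, the epithelial libraries held more, 875315 against 749394 UMIs.

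Genes that process, cross-link, cleave or bind the matrix were read from fixed lists. Among 23 collagen processing enzymes, 6 cross-linking enzymes, 10 other basement membrane genes, 28 elastic fiber and other matrix genes, 18 proteases and inhibitors and 22 matrix receptors, 12, 1, 5, 8, 6 and 16 were tested. Ltbp4, which tethers latent TGF-beta to the matrix, was the 1 gene called over all 25 libraries and was higher in the ILF (3.77, SE 0.98, adjusted p = 0.0175). This was 1 of the 48 tested, or 2.08%, against 2.56% of all genes. Without the discordant libraries 10 of these genes were higher in the ILF and 2 lower, 20.8% and 4.17% of the 48, against 12.7% and 3.37% of all genes. The higher ones included Serpinh1, the collagen chaperone (3.86, adjusted p = 0.0151), Hspg2, perlecan (3.52, adjusted p = 0.0396), Mmp14, a membrane collagenase (4.35, adjusted p = 0.00820), and the receptors Itgb3 (4.60, adjusted p = 0.00250), Cd44 (3.33, adjusted p = 0.0148), Itga9 (3.30, adjusted p = 0.0223) and Itgav (3.0, adjusted p = 0.0247). Tgm2, Ecm1 and Ltbp4 were the others. The lower ones were P4hb, a subunit of prolyl hydroxylase that is also a general folding enzyme (-3.55, adjusted p = 0.00434), and Fbln1, fibulin 1 (-3.63, adjusted p = 0.0331).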

How the data were processed

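RNA of 25 laser-cut segments was sequenced by the authors with a protocol that adds UMIs (mcSCRB-seq in the methods, while the labels also name a SMART-seq kit for laser-cut material). They made reads with bcl2fastq 2.15.0.4, aligned them with STAR within zUMIs to GRCm38, and deposited raw UMI counts per gene, with no normalization. Groups, repeats and mice came from the labels. All sample columns were used.

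Counts were tested with edgeR 4.0.16 (TMM, quasi-likelihood, segment plus mouse, genes reaching 3 UMIs in 3 or more libraries) on R 4.3.3, with Benjamini-Hochberg adjustment over all genes tested. DESeq2 1.42.0, limma-voom 3.58.1, RLE size factors, other library sizes and filters, the repeat block, each repeat left out, each mouse alone and the fit without the 6 discordant libraries were alternatives. The merged fit, and the block or DESeq2 without the 6 discordant libraries, were chosen after seeing the data. The script was checked on simulated counts. Standard errors are the fold change over the square root of F, and none was given where F was near 0. Shares are UMIs per 10,000 of the library, and intervals or limits cover counting error only. Gene positions are from GENCODE M21 on GRCm38.

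The repeat number pairs the 5 segments of a repeat, which the paper collected as a set within 1 mouse. It is a finer match than the mouse term of the main fit. Deviations from segment means correlated at a mean of 0.0272 over 50 pairs of the same repeat and -0.00913 over 80 pairs of the same mouse and other repeats, across genes. The 5 repeats of a segment come from 2 animals, so p-values measure mainly the spread between pieces of the same animals. No repeats were duplicates: the closest, ILFB repeats 1 and 4, had a chi-square per degree of freedom of 4.53.

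The members and lists were chosen with earlier results of these data known. Members were named if called in any comparison, among the 15 with the most UMIs, first in their class, at an end of the fold change range, with at least 30 UMIs and over 50% in 1 library, or tested epithelial laminins.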

Additional observations from a re-analysis of the deposited data

Results flagged for a closer look

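Summed shares were tested for a library that stands apart from its segment in 25 groups of 5 libraries, and 8 held one, by a gap to the nearest library above Dixon's limit for 5 values. Chance flags about 5% of groups when the values are independent and normal. These shares were skewed and often 0, and the sum of all members contains the other sums. The 5% is therefore no measure of chance for these groups. In ILFB, repeat 5 held 9.44 laminin UMIs per 10,000. In ILFT, repeat 5 held 5.25 type VI collagen UMIs per 10,000. In FAET, repeat 1 held 8.31 fibrillar and 1.53 type IV collagen UMIs per 10,000. In FAEB, repeat 1 held 0.873 type IV and 0.764 type VI collagen UMIs per 10,000. In VB, repeat 5 held 15.6 UMIs of all members per 10,000, and repeat 2 held 1.70 type IV collagen UMIs per 10,000. FAET repeat 1, ILFB repeat 5 and VB repeat 5 are among the 6 discordant libraries. No member differed between the mice in its ILF against epithelium change at an adjusted p of 0.05 (edgeR interaction, 0 of 27, with 1 at an unadjusted p under 0.05).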

How the results depend on the processing

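The count of 4 members called in the ILF against the epithelium was 2 with the filter at 5 UMIs in 5 libraries, which left 14 members and neither Col4a2 nor Lama4, 1 with limma-voom, 2 with the replicate block, 2 in mouse 2 alone, 0 in mouse 1 alone, 15 without the 6 discordant libraries, 11 with the replicate block added and 16 with 2 merged groups added, and 0 to 8 over the fits that leave out 1 repeat. The share of all genes called higher moved too, from 2.56% to 12.7% without the 6 discordant libraries, 6.35% with the block added and 15.2% with 2 merged groups added. Over all libraries it was 0.769% with the stricter filter, 0.231% with limma-voom and 0.653% with the replicate block. It was 0.291% in mouse 2 alone, 0% in mouse 1 alone and 0% to 3.21% over the fits that leave out 1 repeat. The count without the 6 discordant libraries by DESeq2 was 6, with no adjusted p for 8 of the 27 members, against 7.56% of all genes higher. DESeq2 over all libraries gave no adjusted p for the 27 members and so no count. The 3 members called across all 5 segments were 5 with RLE size factors, 5 with library sizes without mitochondrial and 5% genes, 0 with the filter at 5 UMIs in 5 libraries, 0 with DESeq2, 0 with limma-voom, 1 with the replicate block, 0 in mouse 1 alone, 14 without the 6 discordant libraries, 11 with the replicate block added, and 0 to 9 over the fits that leave out 1 repeat. The share of all genes called across the 5 segments moved as well, from 1.79% to 2.5% with RLE size factors and 2.73% with those library sizes. It was 0.0592% with the stricter filter, 0.01% with DESeq2, 0.0402% with limma-voom, 0.482% with the replicate block and 0.0203% in mouse 1 alone. Without the 6 discordant libraries it was 15.5%, and 8.25% with the block added. Over the fits that leave out 1 repeat it was 0.161% to 5.07%. The other 4 comparisons gave 0 members in every fit, but DESeq2 without the 6 discordant libraries gave no adjusted p for 23 members in ILFB against ILFT, 21 in FAET against VB and 19 in FAET against FAEB. A sign turned for Lamc1 without the 6 discordant libraries (-0.55), there with the replicate block (-0.88), with DESeq2 (-0.28) and with 2 groups (-0.46), for all libraries in 2 groups (-0.01949) and in mouse 1 alone (-0.58). In mouse 1 alone it also turned for Col1a2 (-1.60), Lamb1 (-1.50), Vim (-0.32), Col1a1 (-0.19) and Lamb3 (0.73), and for Col14a1 with limma-voom (-0.34) and with 2 groups (-0.19). The cause was not tested, except that mouse 1 has 2 repeats. Shares of the 5 sums moved by less than 1 SD with either alternative. The SD between libraries was close to the mean or above it in several segments. Staying within it therefore does not show that the shares were stable. Without the discordant repeat 1, the mean fibrillar collagen share of FAET fell from 2.3 to 0.798, which is still within 1 SD. The 62 members held 0.133% of the UMIs, and 35 were below the filter. Without a filter all 62 were tested and 4 were called.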
